A study of Homo sapiens with 14 samples.

Results

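A total of 436 of 65774 consensus regions (0.663%) were open in the 3 clones EM1, EM2 and EM3 of SUM149PT and low in the clones E, M1 and M2. Members were chosen by measured accessibility, which in every EM clone had to be at least 1 higher than in the highest of E, M1 and M2, on the scale log2(CPM + 0.5), where CPM is the count scaled to the library total. Group values were means over the libraries of a clone, with E represented by its replicate 2 alone. The unselected line, Parental, played no part in the choice, and neither did E replicate 1. The opposite criterion, at least 1 lower in every EM clone than in E, M1 and M2, held for 297 regions.

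Accessibility had been profiled by ATAC-seq, in which a transposase inserts sequencing adapters into open chromatin, in 14 libraries of SUM149PT. This established line comes from an inflammatory breast cancer negative for the oestrogen and progesterone receptors. The groups were Parental, the EM clones, the M clones (M1 and M2) and clone E, each with 2 libraries and all grown without treatment in the medium that the cell supplier recommends. The clone letters are not spelled out in the labels, and the title of the series refers to an intermediate state of the epithelial-mesenchymal transition (EMT). Each clone is 1 isolate of 1 line, and the labels do not say whether its libraries came from separate cultures, so a p-value here reflects no more than library-to-library spread, which may be technical. E replicate 1 was the shallowest library (8138944 counts) and EM3 replicate 1 the deepest (16786823). E replicate 1 stood apart from E replicate 2. At 9 regions without a count in the 10 libraries of Parental, the EM clones and M1, and with at least 10 CPM in both M2 libraries, it had a median of 3.93 CPM, against 0.445 in E replicate 2 and 17.3 and 17.4 in M2. Results that touch E therefore name the library.

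In EMT, epithelial cells loosen their junctions and take on mesenchymal features, and cells that hold both sets of features are called intermediate or hybrid. Regulatory elements that lie away from gene starts, chiefly enhancers, are the part of open chromatin that differs most between cell states, while promoters of widely used genes are open in most cells. An accessible region marks DNA free of nucleosomes and says nothing by itself on whether the nearest gene is transcribed.

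Only 7 of the 412 members on chromosomes for which RefSeq starts were at hand overlapped a promoter window, the 250 bases before to 50 after a gene start. That was 1.7%, against 16.3% of 62424 regions on the same chromosomes. The promoter-side bases of 4 of them (RefSeq, GRCh38.p14, 5′ to 3′ on the strand of the gene) are shown. These are the members whose bases before the start, as far as they lay in the member, held a motif match. Those of LOC105373426, LOC124903342 and LOC105376380 held none and are not shown. A match in every printed stretch therefore carries no meaning of its own. Capitals mark matches, on either strand, to the motifs TGACTCA (AP-1), GGAATG (TEAD), CACCTG (the E-box that ZEB and SNAI factors bind) and GGGCGG (SP and KLF factors). The stretches lie at chr4:184805554-184805803 (minus strand, an internal start of ACSL1), chr11:32400401-32400650 (minus strand, an internal start of WT1), chr6:3789120-3789369 (minus strand, LOC124901244) and chrX:38870497-38870746 (plus strand, LOC124905177).
ACSL1: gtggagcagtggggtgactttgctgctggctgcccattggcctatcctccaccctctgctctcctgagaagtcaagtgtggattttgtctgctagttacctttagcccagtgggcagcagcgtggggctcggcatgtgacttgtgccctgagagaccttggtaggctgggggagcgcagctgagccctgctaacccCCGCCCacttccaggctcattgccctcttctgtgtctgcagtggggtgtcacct
WT1: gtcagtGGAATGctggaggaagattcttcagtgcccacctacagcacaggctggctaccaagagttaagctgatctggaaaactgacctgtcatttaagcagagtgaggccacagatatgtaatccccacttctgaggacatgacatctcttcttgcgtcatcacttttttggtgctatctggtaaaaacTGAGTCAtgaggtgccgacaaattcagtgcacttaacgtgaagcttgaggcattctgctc
LOC124901244: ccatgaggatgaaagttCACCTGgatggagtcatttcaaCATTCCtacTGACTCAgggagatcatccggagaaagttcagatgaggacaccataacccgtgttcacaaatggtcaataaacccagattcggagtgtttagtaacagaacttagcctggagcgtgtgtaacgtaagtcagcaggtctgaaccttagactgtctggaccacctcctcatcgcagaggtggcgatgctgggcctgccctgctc
LOC124905177: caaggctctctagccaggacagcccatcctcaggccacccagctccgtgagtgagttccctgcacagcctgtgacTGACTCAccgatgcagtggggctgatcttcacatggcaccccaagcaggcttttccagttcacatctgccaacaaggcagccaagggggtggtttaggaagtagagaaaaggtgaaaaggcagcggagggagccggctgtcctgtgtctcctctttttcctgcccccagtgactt

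An AP-1 motif lay in 3 of the 7 promoter windows, those of WT1, LOC124901244 and LOC124905177. Over the 14070 promoter windows that any region overlapped, the share was 4.95%. The AP-1 match of WT1 began 60 bases before the start and read TGAGTCA, and that of LOC124905177 began 175 bases before it and read TGACTCA. The TEAD motif lay in the windows of WT1 and LOC124901244, 2 of 7 against 11% of the promoters in any region. FOX (TGTTTAC) also lay in 2 of 7, against 2.49%, SP and KLF in 2 of 7 against 69.7%, and ETS (CGGAAG) in 0 of 7 against 33.7%. With 7 windows these shares are a description, and a match of letters is not evidence of a bound factor. The other motifs searched are named among the methods.

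WT1 encodes a zinc-finger transcription factor known from Wilms tumour. Accessibility at the member inside the gene (chr11:32400317-32400694) was 9.86 and 14.5 CPM in EM1, 10.9 and 15.3 in EM2, and 11.2 and 13.5 in EM3. Parental had 5.31 and 7.58 CPM, M1 had 5.44 and 5.54, M2 had 2.26 and 2.27, and E had 1.35 and 1.33. The EM libraries were the 6 highest, and Parental lay beside M1 there. At ACSL1, an acyl-CoA synthetase that activates long-chain fatty acids (chr4:184805492-184806098), the libraries of a clone differed more. EM1 had 45.8 and 23.1 CPM, EM2 had 27.2 and 10.7, EM3 had 51.9 and 28.8, Parental had 22.0 and 10.5, and E had 21.3 and 7.78. M1 (3.41 and 0.89) and M2 (3.12 and 2.62) were below all of these. Replicate 1 was the higher library in every group. E replicate 1 lay above EM2 replicate 2, but among same-numbered libraries E was below each EM clone. With E replicate 1 in place of replicate 2, the step between the lowest EM clone and the highest low group was -0.3 there. That step sets E replicate 1 against means of both EM replicates. The other member regions with a listed start belonged to uncharacterised LOC genes. Of these, the LOC124905177 region had the widest step between the EM clones and the rest, 2.12 on the log2 scale.

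Across the 436 members the median level was 12.6 and 10.7 CPM in the EM1 libraries, 8.47 and 8.14 in EM2, and 11.0 and 10.5 in EM3. E replicates 1 and 2 had 3.19 and 2.33 CPM, M1 had 1.39 and 1.27, and M2 had 0.538 and 0.413. The median of all regions lay between 8.4 and 10.9 CPM in every library. The members were therefore of ordinary height in the EM clones and lower than most regions in E, M1 and M2, with the lowest medians in M2. E was the highest of the low groups at 291 members, M1 at 124 and M2 at 21. All members were counted in at least 1 library of the low groups, but both M2 libraries held no count at 8 members, both M1 libraries at 1, and E replicate 2 at 4.

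**Figure D1:**
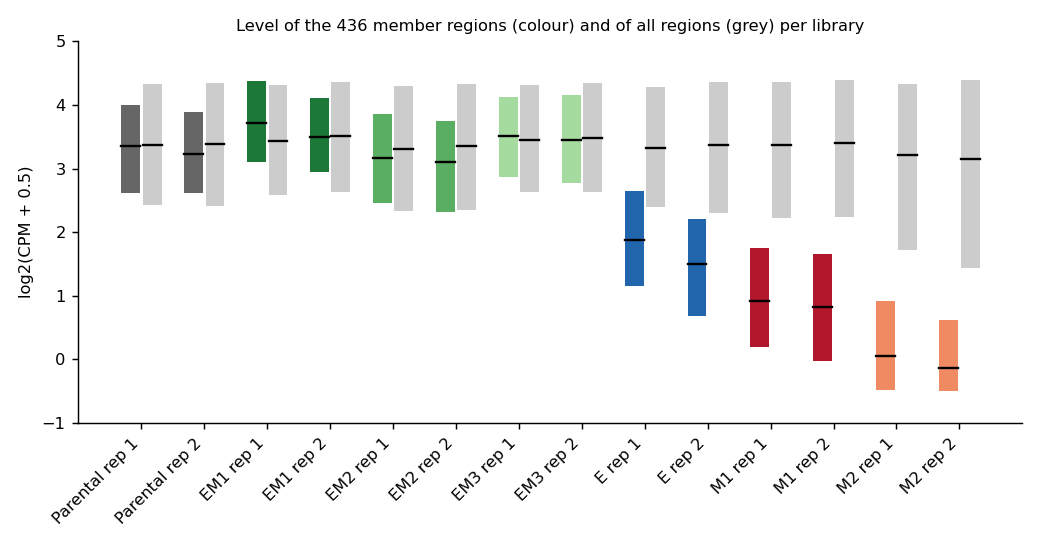
Accessibility, log2(CPM + 0.5), in each of the 14 libraries (horizontal axis, rep for replicate), as the quartile range (bar) and median (black line) of the 436 members (colour) and of all 65774 regions (grey). Medians of members are near those of all regions in Parental and the EM clones, and lower in E, M1 and M2.

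The step between the lowest EM clone and the highest low group had a median of 1.26 on the log2 scale, with quartiles of 1.11 and 1.51 and a largest value of 3.34. It reached 1.5 at 115 members and 2 at 43. These values chose the members and carry no test. Just inside the threshold were regions near PATZ1 (1.002), in ACTN1 (1.001) and near CRABP1 (1.000), and just outside it were a region on chromosome 3 (under 1 before rounding), one near USP24 (0.998) and one near DIP2A (0.996). All 6 EM libraries lay above the 5 libraries of E replicate 2, M1 and M2 at 433 members, and this order held for 4.77% of all regions. The choice of members nearly fixes that order. With E replicate 1 added to the low side it held at 382 members, against 3.51% of all regions. The other libraries in that order had chosen the members, so this share is not independent of the choice either.

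The regions were not closed in the unselected line. Parental was at least 1 above the highest of E replicate 2, M1 and M2 at 361 of 436 members (82.8%), and the same was true of 2.68% of all regions. These shares cannot be set against each other, because the choice of members made the reference low (a median of 1.64 on the log2 scale over members and 4.02 over all regions), while the Parental medians were alike (3.30 and 3.37). Its median member level was 9.68 and 8.84 CPM. Parental was at or above the lowest EM clone at 299 members, above the highest EM clone at 80, between the lowest EM clone and the highest low group at 131, and below the highest low group at 6. By level, then, most of the regions were open in Parental as well as in the EM clones.

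**Figure D2:**
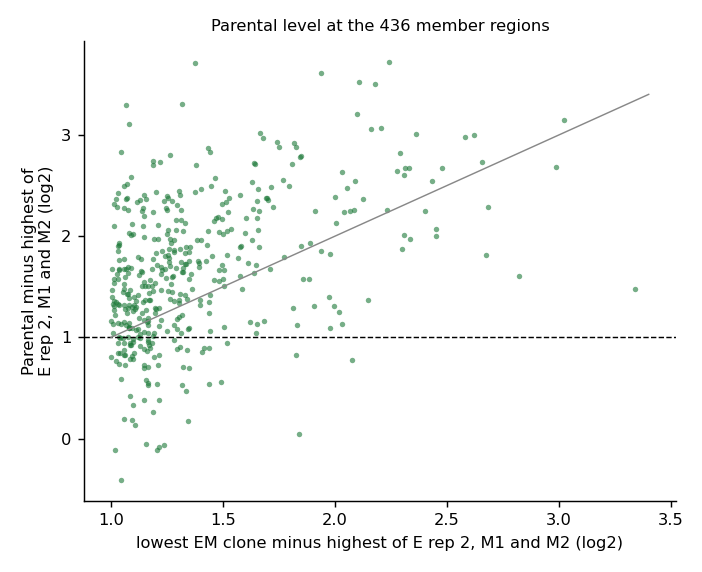
Each of the 436 members by its step between the lowest EM clone and the highest of E replicate 2, M1 and M2 (horizontal, log2) and the height of Parental over the same highest group (vertical, log2). The dashed line is 1 and the grey line is equality with the lowest EM clone: 361 members are at or above the dashed line, and 299 at or above the grey one.

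The Parental libraries and E replicate 1 had no role in the choice of members, and their difference was tested. E replicate 1 is, however, of the same clone as E replicate 2, which the choice required to be low. The shares of members called are therefore not independent of the choice. Nothing is read from their distance to the shares of all regions. By edgeR's quasi-likelihood test, 224 of 436 members were more accessible in Parental than in E replicate 1 at an adjusted p under 0.05, against 6.16% of all 65772 regions tested. None was lower, against 7.91% of all regions, and none was lower at an unadjusted p under 0.05 or by DESeq2. The median log2 difference was 1.57 over members and 0 over all regions, and 423 members had a positive value. The count fell to 143 without Parental replicate 1 and to 118 without Parental replicate 2, where the shares of all regions were 3.7% and 1.71%. With E replicate 2, which the choice of members used, in place of replicate 1 it was 246, against 3.16% of all regions. E replicate 1 exceeded E replicate 2 at 318 members (72.9%), against 51% of all regions, in a set chosen for low values of replicate 2. It was at least 1 below the lowest EM clone at 242 (55.5%), against 5.59% of all regions. The choice of members set the lowest EM clone above E replicate 2 of the same clone. These 2 shares are therefore not independent of the choice, and nothing is read from their distance. The M2-like signal in E replicate 1 coincides here with members at a median of 0.538 and 0.413 CPM in M2, and its part in the result was not tested.

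**Figure D3:**
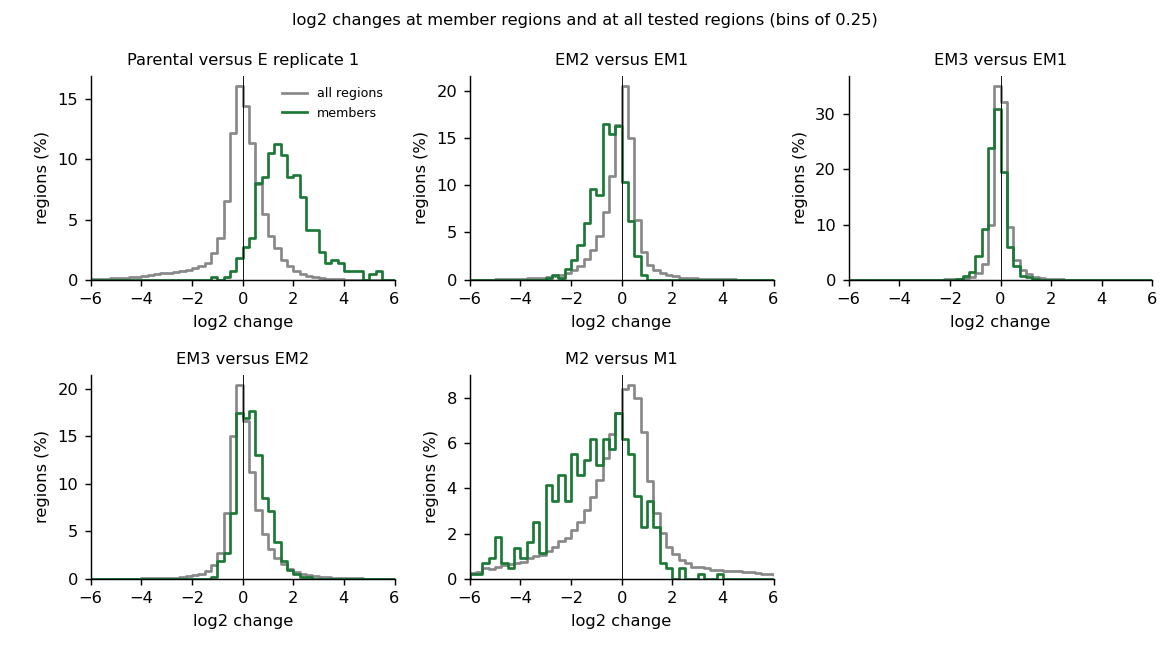
Distribution of fitted log2 changes at members (green) and at all tested regions (grey) in 5 comparisons, as the percent of regions in bins of 0.25, shown from -6 to 6. Members are shifted to the right in Parental versus E replicate 1 (median 1.57), to the left in EM2 versus EM1 (-0.48) and M2 versus M1 (-1), and little in EM3 versus EM1 (-0.17).

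The region inside RNF122, a RING-finger ubiquitin ligase (chr8:33550241-33550677, 2487 bases from an end of the gene), had one of the widest steps, 2.45. It had 27.2 and 23.5 CPM in EM1, 14.9 and 20.3 in EM2, and 28.6 and 24.6 in EM3. E had 3.44 and 2.78 CPM, M1 had 2.77 and 2.74, and M2 had 0.538 and 0. Parental, at 13.4 and 13.2 CPM, lay just under the lowest EM library and well above E, M1 and M2. Its log2 difference from E replicate 1 was 1.98 (SE 0.49, edgeR adjusted p = 0.0191). The adjusted p by the same test was 0.0577 without Parental replicate 1 and 0.0803 without Parental replicate 2. RNF122 had 5 regions within 50 kb for which it was the nearest gene, and the other 4 had steps of at most -0.02. The region that overlaps an end of the gene was open in all groups.

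ZFP42, which encodes the zinc-finger protein REX1 known from pluripotent cells, had 2 members among its 6 regions. The one inside the gene (chr4:188002249-188002859) had 18.3 and 17.3 CPM in EM1, 19.7 and 18.1 in EM2, 17.8 and 17.4 in EM3, and 18.2 and 13.6 in Parental. E had 2.33 and 2.33 CPM, M1 had 3.95 and 4.24, and M2 had 4.2 and 2.69. These 8 libraries of Parental and the EM clones stood clear of the other 6 without any overlap. Parental exceeded E replicate 1 by 2.79 on the log2 scale (SE 0.37, edgeR adjusted p = 0.000621). Its step of 1.98 became 1.1 when the median difference of the surrounding 10 Mb was removed.

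The second ZFP42 region lay outside the gene (chr4:188012403-188012895, 7157 bases from its end). It had 30.8 and 24.2 CPM in EM1, 30.5 and 20.9 in EM2, and 41.6 and 29.1 in EM3, and Parental had 18.2 and 11.4. Here E (6.63 and 9.67 CPM) and M1 (11.9 and 8.08) kept some signal, while M2 had 0.323 and 0.275. M2 was lower than M1 by a log2 change of -4.88 (SE 0.50, edgeR adjusted p = 4.61e-06). Parental overlapped M1, and its difference from E replicate 1, 1.19 (SE 0.42), did not pass (edgeR adjusted p = 0.0794). It passed with DESeq2's Wald test (adjusted p = 0.0393) and with edgeR on only the libraries compared (adjusted p = 0.00204). Of the 4 other regions of ZFP42, 1 just missed the threshold with a step of 0.98.

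**Figure D4:**
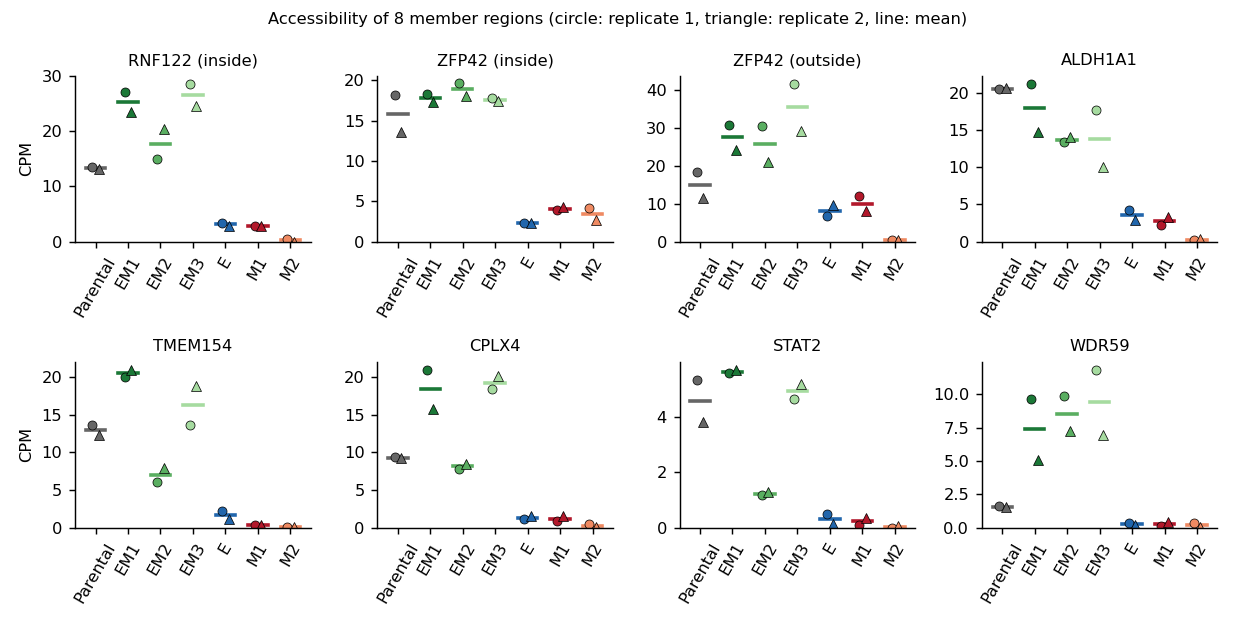
Accessibility (CPM, vertical) of 8 members in the 7 groups (horizontal), with replicate 1 as a circle, replicate 2 as a triangle and their mean as a line. The EM clones are above E, M1 and M2 in every panel, and EM2 is lower than EM1 and EM3 at TMEM154, CPLX4 and STAT2. Parental is near the low groups at WDR59 (1.62 and 1.51 CPM). At the ZFP42 region outside the gene it overlaps M1 (18.2 and 11.4 CPM in Parental, 11.9 and 8.08 in M1). In the remaining panels Parental is high.

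Among members within 10 kb of a protein-coding gene end, the 15 genes with the widest steps were led by a region in ATP9B, a putative phospholipid flippase, and LOC107985149 (2.67), then RNF122 (2.45) and NTAN1, an amidase of the N-degron pathway (2.31). They further comprised the transmembrane protein gene TMEM154 (2.2), the serotonin receptor gene HTR5A (2.08), CPLX4, a complexin of synaptic release (2.07), CHMP7, an ESCRT-III family member (2.03), and the kinase gene BRAF (2.02). The others were RNF144A, ZFP42, INTS7, CTIF, RAB15, CPA4 and GGH, between 1.98 and 1.77. Parental was open at 14 of these 15 and was called higher than E replicate 1 at 9.

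TMEM154 shows the graded form of the pattern. The region 384 bases inside its end (chr4:152619012-152619325) had 20.1 and 21.0 CPM in EM1 and 13.7 and 18.8 in EM3, but 6.03 and 7.94 in EM2. Parental had 13.7 and 12.3 CPM, E had 2.21 and 1.11, M1 had 0.32 and 0.342, and M2 had 0.108 and 0.0688. No library of the EM clones or Parental overlapped E, M1 or M2. BRAF (chr7:140928312-140928790) had its highest levels in EM2, at 14.7 and 15 CPM, with 9.5 and 12.7 in EM1, 5.04 and 7.66 in Parental, and 1.47 and 2.33 in E.

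At 2 of the 15, the carboxypeptidase gene CPA4 and the GTPase gene RAB15, E replicate 1 overlapped the EM clones. CPA4 (chr7:130322666-130322960) had 4.92 CPM in E replicate 1 and 0.889 in E replicate 2, against 2.78 to 7.26 in the EM libraries. RAB15 (chr14:64967044-64967314) had 5.90 and 1.11 CPM in E, against 3.89 to 9.14 in the EM libraries. With E replicate 1 in place of replicate 2 the steps turned to -0.15 and -0.16. These steps set E replicate 1 against means of both EM replicates. Among same-numbered libraries, E was below each EM clone at CPA4. At RAB15, E replicate 1 was above EM3 replicate 1 (5.24 CPM).

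Members near genes of EMT and epithelial identity were few. The 134 regions nearest to genes of epithelial identity held 2 members, in ELF5, an ETS factor of mammary luminal progenitors, and in ESRP1, an epithelial splicing factor. The 189 regions of mesenchymal effectors also held 2, in CD44, the hyaluronan receptor, and in LOXL2, a lysyl oxidase. Among basal and p63-linked genes 1 of 88 regions was a member, near FAT2. Regions of desmosomes and hemidesmosomes (108), keratins (44), luminal identity (29), the Wnt pathway (138), AP-1 factors (71), RUNX and CBFB (21), and NF-kB and cytokines (90) held none. The background was 0.663%, so shares of 1.49% and 1.06% from 2 members each say little about these groups.

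ELF5 (chr11:34495343-34495534, within the gene) had 9.41 and 9.22 CPM in EM1, 7.58 and 8.49 in EM2, and 7.15 and 12.5 in EM3. Parental had 7.93 and 10.7, E had 3.56 and 3.45, M1 had 0.64 and 0.274, and M2 had 0.108 and 0. E thus kept an intermediate signal there and the M clones almost none. LOXL2 (chr8:23389764-23390023) had 6.59 to 8.59 CPM in the EM libraries and 6.63 and 3 in E, so E replicate 1 lay within their range.

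Stem and pluripotency genes had 3 members among 69 regions, both ZFP42 regions and one near ALDH1A1, the retinaldehyde dehydrogenase used as a marker of mammary progenitors. ALDH1A1 (chr9:72888067-72888386, 12285 bases outside the gene) had 21.2 and 14.7 CPM in EM1, 13.4 and 14.1 in EM2, and 17.7 and 10 in EM3. Parental had 20.5 and 20.6 CPM, E had 4.18 and 2.89, M1 had 2.24 and 3.29, and M2 had 0.215 and 0.275. Parental and the EM clones were all above the others. Genes of RING-finger ubiquitin ligases had 4 members among 85 regions (RNF122, RNF144A, RNF43 and RNF217). Both lists were drawn up with RNF122 and ZFP42 already known as members, so these counts are no evidence for the families.

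Signalling genes with 1 member each were BMPR1A, a BMP receptor of the TGF-beta pathway (of 165 regions), VGLL1, a TEAD cofactor of the Hippo pathway (of 105), and STAT2, a transducer of type I interferon (of 55). The 116 regions of collagens and matrix proteases also held 1 member, near MMP7, a matrix metalloprotease. VGLL1 (chrX:136589984-136590415) had 8.66 to 16.0 CPM in the EM libraries and 9.28 and 9.43 in Parental, against 1.97 and 2.78 in E, 2.77 and 4.79 in M1, and 1.18 and 0.895 in M2. BMPR1A (chr10:86804890-86805148) was highest in Parental, with 7.21 and 7.32 CPM, followed by 3.41 to 4.48 in the EM libraries and 0.108 to 1.84 in the E, M1 and M2 libraries. Of markers of other cell types, 1 of 27 regions of blood cell genes was a member, near CD3E (chr11:118321701-118322058), and none of the 41 endothelial or 30 neural ones. Over the 17 regions named from these lists, Parental was open at 14. That is near its share of all members (82.8%, against 2.68% of all regions) and is not particular to the lists.

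The fitted difference between Parental and E replicate 1 within 10 kb of a gene end was greatest at ZNF317, CDKN1A, COQ2, GK5 and STAT2. CDKN1A, the gene of the cell cycle inhibitor p21, had a member 3785 bases from its end (chr6:36691117-36691348). It had 5.4 and 6.23 CPM in Parental and 0.491 and 0.667 in E, a log2 difference of 3.57 from E replicate 1 (SE 0.78). The 0.491 CPM of E replicate 1 is a few counts of a single library, so this fold is imprecise. COQ2, an enzyme of ubiquinone synthesis (chr4:83268402-83268806), had 10.9 and 8.17 CPM in Parental and 0.983 and 0.667 in E, a difference of 3.29 (SE 0.52, edgeR adjusted p = 0.00168). Parental overlapped EM1 at both. ZNF317 (6.58 and 3.79 CPM in Parental) and GK5 (3.78 and 3.28) had only 0.123 and 0.369 CPM in E replicate 1, too few counts for a fold to be given.

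At the other end were members at which Parental was well below the EM clones. It was at least 1 below the lowest EM clone at 11 members. The region with the widest step of the whole set, inside WDR59, a component of the GATOR complex of mTORC1 signalling (chr16:74950466-74950908, step 3.34), was one of them. It had 9.68 and 5.04 CPM in EM1, 9.89 and 7.22 in EM2, and 11.8 and 6.94 in EM3, against 1.62 and 1.51 in Parental. E had 0.369 and 0.222 CPM, M1 had 0.107 and 0.411, and M2 had 0.323 and 0.0688. Parental was thus low but above all 6 of those libraries.

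Inside DRD2, the dopamine D2 receptor gene, a member (chr11:113446210-113446628) had between 21.4 and 26.6 CPM in the EM libraries and 5.86 and 6.31 in Parental, within the range of 2.13 to 8.83 over E, M1 and M2. A pair of members 5806 bases apart inside PHACTR1, a regulator of actin and of protein phosphatase 1, showed lower Parental values too. The first (chr6:12785319-12785655) had 8.18 to 15.4 CPM in the EM libraries and 4.86 and 3.37 in Parental, and the second (chr6:12791461-12791963) had 3.1 to 10.3 and 1.53 and 0.589. SEMG2, the gene of a seminal protein, had a member nearby (chr20:45218138-45218476) with 5.03 to 17.9 CPM in the EM libraries, 2.25 and 2.1 in Parental, and 2.95 and 2.33 in E. The other members of the 11 lay near or in HTR5A, CPOX and GSN, in the LOC124901244 promoter, and on chromosomes 1 and 2 far from genes.

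The EM clones themselves differed at part of the set. EM2 was the lowest EM clone at 296 members and EM1 the highest at 261. By edgeR's quasi-likelihood test, EM2 was lower than EM1 at 76 members (17.4%), against 9.39% of all regions. It was higher at none, against 5.24% of all regions, with 4 higher at an unadjusted p under 0.05 and none by DESeq2. EM3 was higher than EM2 at 51 (11.7%, against 9.11% of all regions) and lower at none (against 5.13%), with 5 lower at an unadjusted p under 0.05 and none by DESeq2. The median log2 change of EM2 from EM1 was -0.48 over members and 0 over all regions. EM2 was called below both other EM clones at 42 members, against 7.11% of all regions. The rule held all EM clones to the same minimum, so shares of members are not independent of their choice and nothing is read from their distance to the shares of all regions.

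Few differences were called between EM1 and EM3. By edgeR, 1 member was higher in EM3 (against 0.0623% of all regions) and none was lower (against 0.0684%), with 22 lower at an unadjusted p under 0.05 and none by DESeq2. The single call was a region within MAPK4, an atypical MAP kinase gene (chr18:50649744-50650223), with 39.4 and 35.3 CPM in EM3, 12.6 and 13.9 in EM1, and 21.6 and 19.9 in EM2, and it is named here because its call stood alone. Its log2 change from EM1 was 1.48 (SE 0.22, edgeR adjusted p = 0.0296), and it was not called when any 1 EM1 or EM3 library was left out, or with only the libraries compared.

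STAT2 and IDI1 had some of the largest falls from EM1 to EM2 among called members within 10 kb of a gene end. Other members of the set had larger fitted falls. The member inside STAT2 (chr12:56350720-56350982) had 5.56 and 5.69 CPM in EM1, 4.65 and 5.18 in EM3, and 5.31 and 3.79 in Parental, but 1.16 and 1.27 in EM2. EM2 was lower than EM1 by a log2 change of -2.19 (SE 0.39, edgeR adjusted p = 0.0027), while E (0.491 and 0.111 CPM), M1 (0.107 and 0.342) and M2 (0 and 0.0688) were lower still. Near IDI1, an isomerase of isoprenoid synthesis (chr10:1036267-1036972), EM1 had 51.7 and 39.3 CPM and EM3 41.5 and 41.3, against 9.43 and 11.1 in EM2, 16.6 and 15.1 in Parental and 6.14 and 4.78 in E. EM2 was lower than EM1 there by a log2 change of -2.14 (SE 0.23, edgeR adjusted p = 0.00011). The step at IDI1 was -0.29 once the median of its 10 Mb window was removed, so it is a member only without that correction. A member in GCNT1, nearest to RFK (chr9:76400538-76400951), had 20.3 and 26.7 CPM in EM1, 22.1 and 34.2 in EM3, and 6.18 and 8.34 in EM2.

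Lower values in EM2 were counted separately by the state of Parental. Of the 361 members open in Parental, 73 were called lower in EM2 than in EM1 and the median log2 change was -0.57. Of the 75 not open in Parental, 3 were called and the median was -0.08. Over all regions 9.39% were called lower in EM2 than in EM1. The counts are not independent of the choice of members, so nothing is read from their distance to that share. The difference between these subsets was not tested.

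M1 and M2 differed in how low the members were. M2 was lower than M1 at 181 members by edgeR (41.5%), against 29.8% of all regions, and higher at 20 (4.59%), against 28.3% of all regions, with a median log2 change of -1. The rule removed regions open in either M clone, so these shares are not independent of the choice of members and are given without a reading. A member in ATF2, a bZIP transcription factor gene (chr2:175080548-175080818), had 2.24 and 5.27 CPM in M1 and 0 and 0.138 in M2, and one in ARHGAP31 (chr3:119301045-119301496), had 6.62 and 4.38 in M1 and 0.215 and 0.0688 in M2. The counts in M2 were too few for a fold. In the opposite direction, near KLF7, a Krüppel-like factor gene (chr2:207181654-207182177), M2 had 3.01 and 1.31 CPM and M1 had 0.854 and 0.821, a log2 change of 1.45 (SE 0.55, edgeR adjusted p = 0.038, and 0.289 without M2 replicate 1). The KLF7 call was lost as well without M1 replicate 1 (0.11) or M1 replicate 2 (0.153), with column totals (0.0607), with the window median removed (0.0662) and with only the libraries compared (0.0524). In MBP (chr18:76983158-76983562) M2 had 9.26 and 5.92 CPM and M1 had 4.27 and 3.63, a change of 1.08 (SE 0.28, edgeR adjusted p = 0.00586). That call was lost without M1 replicate 2 (adjusted p = 0.058) and without M2 replicate 1 (0.0552), and with the 10 Mb window median removed the change was 0.57 (adjusted p = 0.0992).

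The members lay farther from gene ends than other regions did, and more often wholly inside genes. The median distance to the nearest end of a protein-coding gene was 42868 bp, against 22542 bp for all regions, and 12 members (2.75%) were within 1 kb of one, against 18.7%. Wholly inside protein-coding genes lay 237 members (54.4%), against 44.7% of all regions. A region across a gene end does not count as inside that gene, so this share is not separate from the distance to ends. They were also narrower, with a median width of 358 bp against 407 bp, and none was 1 kb or wider, against 3.39% of all regions. Of the authors' 7 peak lists, exactly 4 held a peak at 157 members (36%), against 9.73% of all regions, and all 7 at 1 member (0.229%), against 21.2%. The choice of regions high in some groups and low in others shapes these numbers of lists, so they are not an independent trait.

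**Figure D5:**
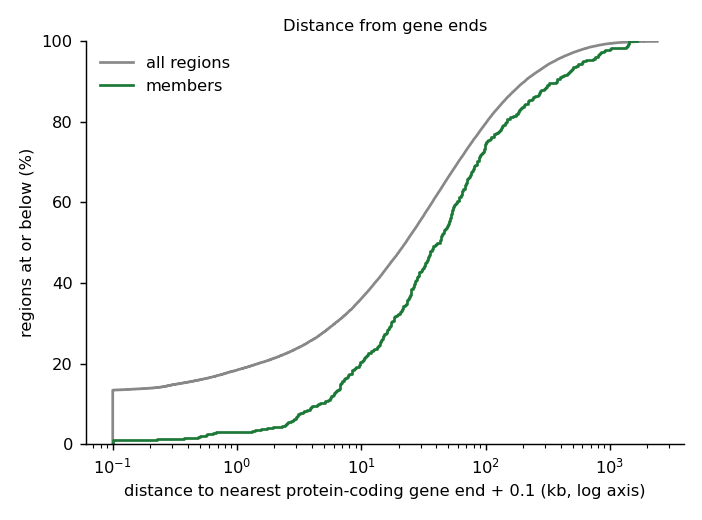
Cumulative percent of regions (vertical) by distance to the nearest protein-coding gene end plus 0.1 kb (horizontal, kb, log axis), for the 436 members (green) and all 65774 regions (grey). The members' curve starts lower, with 2.75% within 1 kb of an end against 18.7%, and reaches 50% at 42868 bp against 22542 bp.

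Neighbouring regions mostly did not share the pattern. Within 10 kb, 213 members had a neighbouring region, and 8 of those neighbours (3.76%) were members, against 0.618% for all regions. The median step of these neighbours was -0.42, against -0.70. DRD2 was the gene with the most members, 3 of its 8 regions, and another member followed within the same 1 Mb (113 to 114 Mb of chromosome 11). Besides the one within the gene, a DRD2 region 30376 bases outside it (chr11:113505774-113506592) had 57.0 to 88.9 CPM in the EM libraries, 50.4 and 64.6 in Parental, 28.4 and 29.3 in E, 2.45 and 5 in M1, and 1.29 and 0.689 in M2. Members of 1 locus thus differed in whether Parental was open, since this region was high in Parental and the one within the gene was not. The genes ACMSD, CTIF, GAB1, LNPK, RREB1, TMEM154, ZFP42 and ZNF860 had 2 members each.

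In all, 14 windows of 1 Mb held 3 or more members, 43 members together. Parental was open at 35 of these 43. That is near its share of all members (82.8%, against 2.68% of all regions) and is not particular to the windows. The windows included those of the calmodulin-like genes CALML3 and CALML5, of ELF5 and CAPRIN1, of LOXL2 and CHMP7, of the transcription factor gene TFAP2A and of the kinase gene DAPK1. Near CALML5, a calmodulin-like gene of keratinocyte differentiation (chr10:5488290-5489114), the EM libraries had 83.2 to 99.2 CPM, Parental 106 and 103, E 48.8 and 41.6, M1 2.99 and 1.64, and M2 1.29 and 0.206. E was here at a high level in absolute terms, so that membership rested on a step of 1.1 over E.

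Chromosomes 4, 11 and 10 held more members than their share of regions. Chromosome 4 had 47 members (10.8%) and 5.46% of regions, chromosome 11 had 42 (9.63%) and 5.44%, and chromosome 10 had 36 (8.26%) and 4.64%. Chromosome 12 had 7 members (1.61%) and 4.53% of regions. Over all regions of chromosome 4 the EM clones were above E replicate 2 by a median of 0.35 on the log2 scale, over chromosome 11 by 0.20 and over chromosome 10 by 0.13, while over chromosome 12 the median was -0.16. The part of these chromosome-wide differences in the members' numbers was not tested beyond removing the median of each 10 Mb window, after which 317 regions met the criterion, 272 of them among the 436, and Parental was open at 265 of the 317.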

How the data were processed

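ATAC-seq libraries of 7 groups of SUM149PT, 2 each, were used. The authors deposited raw counts per consensus region. The submitters' processing notes list hg38 and, without their roles, MACS2 2.1.1, Bowtie2 2.2.6, featureCounts, cutadapt 1.9.1, deepTools, bcl2fastq 2.20.0.422 and Picard; the merging step is not described in the sources used here. The authors' 7 deposited peak lists carry a peak score, and only their intervals were used, as a number of lists, because list names and sample labels disagree.

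Members and lists were chosen with earlier results of these data known. Counts were tested with edgeR 4.0.16 (R 4.3.3): TMM scaling, filterByExpr with a minimum count of 10 (2 regions removed, 65772 tested), 8 means over 14 libraries with E replicates 1 and 2 apart (6 residual degrees of freedom, common biological coefficient of variation 0.189), Benjamini-Hochberg adjustment over all regions, and calls at an adjusted p under 0.05. The SE is the absolute log2 change divided by the square root of F. DESeq2 1.42.0 was an alternative.

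Genes are from RefSeq (GRCh38.p14): 19880 protein-coding genes, the nearest end within 50 kb, without strand. Coordinates are 1-based in hg38. Promoter windows exclude chromosome 8. The motifs searched on both strands were AP-1, TEAD, GRHL, RUNX, ZEB and SNAI E-box, ETS, FOX, GATA, SOX, octamer, STAT, NF-kB, SP and KLF, CEBP, CTCF and p63, over 300-base windows. Named were members of RNF122 and ZFP42, the 15 widest steps within 10 kb of a gene end, up to 3 per gene list, the 5 largest and smallest Parental differences, the 3 largest and smallest called changes per other comparison, windows with 3 or more members, and the edge of the threshold; WT1, ACSL1, WDR59, PHACTR1 and MAPK4 were added after their values were seen. Some named members are not reported here.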

Additional observations from a re-analysis of the deposited data

How the results depend on the processing

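The number of members was 395 with the mean of both E libraries (320 of them among the 436), 426 with TMM, 403 with DESeq2 size factors, 332 and 507 with pseudocounts of 1 and 0.25, 115 with a threshold of 1.5 and 202 with every library held to the rule, and Parental was open at 95 of those 115 and 185 of those 202. Leaving out 1 library gave 408 to 480 members, with Parental open at 335 to 387. With E replicate 1 in place of E replicate 2, chosen after seeing the data, 534 regions met the rule, 242 of them among the 436. The labels do not say that replicate numbers pair the libraries. Deviations of same-numbered libraries nevertheless correlated above 0 in all 21 pairs of groups (0.02 to 0.59, median 0.27, 19 above 0.1). The main tests leave the replicate number out, so their spread may hold a part that same-numbered libraries share. The source of that part was not tested. The replicate block gave 298 members higher in Parental than in E replicate 1 (10% of all regions), 2 higher and 139 lower in EM2 than EM1 (10.1% and 15.3%), 2 lower in EM3 than EM1 (0.319%), and 96 higher and 5 lower in EM3 than EM2 (14.9% and 9.82%), and the outer ZFP42 region passed in Parental (1.42, adjusted p = 0.00108). With window medians removed, 1 member was higher in EM2 than EM1 (4.06% of all regions). With only the libraries compared, 1 was lower in Parental (14%), none was higher in EM3 than EM1 (0%), and 9 of 281 tested were higher in M2 than M1 (26.8%). Leaving out 1 library gave 118 to 143 members higher in Parental, 40 to 57 lower in EM2 than EM1, 20 to 29 higher and 0 to 2 lower in EM3 than EM2, 0 higher in EM3 than EM1, and 7 to 15 higher and 130 to 161 lower in M2 than M1. Where these values moved, the cause was not tested, beyond the fewer libraries. At the lowest counts with 1 library left out, the share of all regions called was also below its main value. This held for Parental above E replicate 1, EM2 below EM1, EM3 above EM2 and M2 above M1. Those lower counts are therefore not read as a change particular to the members. With E replicate 1 in place of replicate 2, 23 of the 436 steps turned negative, ACSL1 (-0.3) among them. Among regions named by rule, steps that changed sign were IDI1 (-0.29, window removed) and, with E replicate 1 in place of replicate 2, RAB15 (-0.16), CPA4 (-0.15) and RNF43 (-0.22). Small, uncalled Parental differences also changed sign: KAT14 from -0.23 to 0.15 (replicate block), 0.00 (both E libraries), 0.27 (E replicate 2) and -0.59 to 0.01 (leaving out a Parental library); SIPA1L1 from -0.03 to 0.03 (DESeq2 size factors and Wald test), 0.04 (replicate block), 0.30 (window removed), 0.61 (both E libraries), 1.70 (E replicate 2, adjusted p = 0.0478) and -0.13 to 0.01 (leaving out a Parental library); RNF144A from 0.03 to -0.01 (window removed) and -0.28 to 0.24 (leaving out a Parental library); and PRKAG3 from 0.18 to -0.03 and 0.31 (leaving out a Parental library). E replicate 1 is a single library, so its difference from Parental has no value without it, and the spread is pooled from the other groups. At 0.0688 CPM, the value of 1 count in the deeper M2 library, levels in M2 are limited by depth.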
